A study of Mus musculus with 2 samples.

Results

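The genes of the glutathione, thioredoxin and antioxidant system were compared between epithelial cells of young and aged mouse submandibular glands. They were chosen by their name on the array, and the choice covered the glutathione S-transferases, glutathione peroxidases, peroxiredoxins, thioredoxins and their reductases, superoxide dismutases, catalase, the enzymes that make and recycle glutathione, sulfiredoxin, the transcription factor Nrf2 (Nfe2l2) with its partner Keap1, Hmox1, Nqo1 and the metallothioneins Mt1 and Mt2. This gave 60 genes on 93 probes, out of 37007 gene names on the array. Of the 60 genes, 52 had a detected probe, that is 1 that the scanner software marked as well above background, on at least 1 of the arrays, and 21348 genes did so over the whole array.

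The young sample was taken at 9 weeks of age and the aged sample at 24 months. Both were from female C57BL/6 mice (C57BL/6N in the methods of the study). Both preparations were enriched on magnetic beads for EpCAM (CD326), a surface protein of epithelial cells. The bead selection leaves other cells in the preparation, and the young and aged animals had different sources according to the methods. RNA of each age was hybridized to 1 Agilent array with probes of 60 bases, so no difference reported here has a replicate check. No test was made and there are no p-values. The labels do not say whether the RNA of an array came from 1 or several animals. Below, "in aged mice" and "in young mice" mean on the aged and on the young array. The only errors available are technical. The scanner software attached an error of about 10% to each signal, which comes to a median of 0.20 on the log2 scale for the difference between the arrays, and the SD over repeated spots of a probe was 0.03 (median of 293 probes, log2). Each antioxidant probe had 1 spot per array. In such bulk RNA, fewer cells of a type and less RNA per cell cannot be told apart.

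Glutathione is the main small thiol of the cell. Gclc, Gclm and Gss make it, Gsr restores it after oxidation, glutathione peroxidases spend it on peroxides, and glutathione S-transferases attach it to reactive compounds. Peroxiredoxins remove peroxides with electrons from thioredoxin, superoxide dismutases turn superoxide into hydrogen peroxide and catalase breaks that down, while Nrf2 switches on many of these genes when its inhibitor Keap1 releases it. Salivary secretory and duct cells are rich in mitochondria and fold much protein, and both processes produce oxidants.

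The level of a gene is given as the processed signal divided by the 75th percentile of the array (256 for young, 198 for aged), read from its brightest probe. Levels of different probes cannot be ranked against each other, because probes bind with different strength. Differences are aged minus young on the log2 scale, and 2-fold was the threshold, as in the methods of the study. Of the spots, 55.4% of the young and 50.8% of the aged array were detected. A gene detected on 1 array only has a lower limit of the fold in place of a value.

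The mu class transferases and Mgst2 held 3 of the 5 genes past 2-fold described below, and the bases on which they were read are shown first, as the files give them. The probes of Gstm4, Gstm6 and Gstm7 cover 353, 538 and 1175 bases of the genome with 60 bases and so read across a junction between exons. The coordinates in the files are those of mm9 (NCBI37), and the probes run 5′ to 3′ on the - strand, except that of Mgst2 on the + strand. The Gstm4 probe lies at chr3:107846495-107846847, that of Gstm6 at chr3:107745662-107746199 and that of Gstm7 at chr3:107732073-107733247. The Mgst2 probe, at chr3:51486449-51486508, is given whole, and capitals mark its last 3 bases, a stop codon in the frame of the first base, in which no earlier stop occurs. For Gstm1 (chr5:117082490-117082549) and Gstm2 (chr3:107784622-107784681), only the last 30 bases of the probe are given, and capitals mark the polyadenylation signal AATAAA. This signal precedes the end of a message, and 15 of the 93 antioxidant probes hold it.
Mgst2: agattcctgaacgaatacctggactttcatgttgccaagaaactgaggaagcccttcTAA
Gstm4: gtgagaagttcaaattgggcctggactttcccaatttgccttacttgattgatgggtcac
Gstm6: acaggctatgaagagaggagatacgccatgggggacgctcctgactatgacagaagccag
Gstm7: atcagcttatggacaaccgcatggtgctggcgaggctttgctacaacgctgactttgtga
Gstm1: gtctcatctacAATAAAgtctgaaacacac
Gstm2: cccatttggttctcAATAAAgtgtgaatca

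Of the 52 genes, 4 were higher in aged mice by 2-fold or more, namely Gstm1, Gstm3, Gpx2 and Gpx3, and 1 was lower by 2-fold or more, namely Mgst2. Gpx3 and Mgst2 were detected on 1 array only and are counted by their limits. The share past 2-fold was 7.69% for higher and 1.92% for lower, against 2.52% and 5.14% of all 21348 genes counted in the same way. Among the 50 antioxidant genes detected on both arrays, 3 (6%) passed 2-fold upward, against 1.51% of 18746 genes, and 0 downward, against 3.05%. Small numbers stand behind these shares, and the 3 genes detected on both arrays lay close to the threshold, with Gstm3 at 2.004-fold. Over both directions, 22 of the 50 differences (44%) were larger than 2 times their software error, against 27.9% of the 18746 genes. That error leaves out the spread between animals and arrays, so neither share counts genes that differ with age. The sets also differ in brightness, with 42 of the 50 and 10052 of the 18746 at a mean level at or above the 75th percentile. The share among genes of like brightness was not computed.

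Most other antioxidant genes differed by less than 2-fold, and more of them were higher in aged mice than lower. Of the 50 differences, 39 lay above 0 and 11 below, with a median of 0.31 and quartiles of 0.06 and 0.52. The median of all 18746 genes was itself 0.09, with 59.9% of them above 0. Among bright genes, with a mean level at or above the 75th percentile, the median was 0.35 for 42 antioxidant genes and 0.16 for 10052 genes. The point from which differences are counted depends on how the arrays are set level, and 8 ways were compared, namely the 75th percentile over all probes, the same over probes detected on both arrays, centring on the median, quantile normalization, a loess fit that removes trends with signal, the spike-in controls, the normexp background correction and the authors' table. The median of all genes moved by 0.17 with centring on the median of each array, by -0.11 with the percentile over detected probes, by -0.13 with loess and by -0.26 with the spike-in controls. Relative to the median of all genes, the antioxidant genes stood 0.22 higher, and 0.07 to 0.22 higher under the 8 ways of setting the arrays level, the lowest with quantile normalization. Here and below, values relative to this median cannot differ among scalings that shift an array by a constant. Only quantile normalization (0.07), loess (0.09) and normexp (0.13) could therefore depart from 0.22. Of the 50 genes, 26 were above the median of all genes and 11 below it under all 8, and the side of 13 depended on the scaling.

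**Figure D1:**
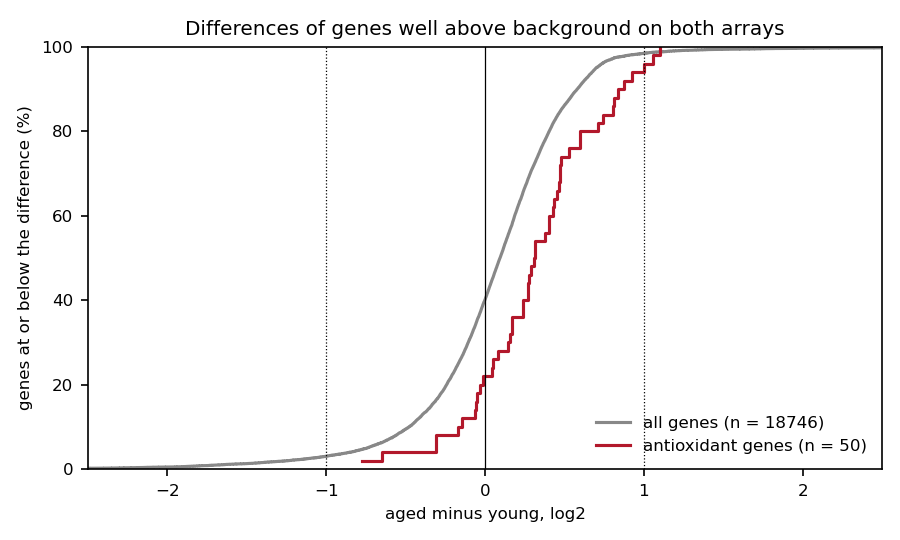
The share of genes (vertical axis, percent) at or below each difference between the arrays (horizontal axis, aged minus young, log2) is drawn for all 18746 genes detected on both arrays and for the 50 antioxidant genes, with dotted lines at 2-fold. The antioxidant curve lies to the right, with medians of 0.31 and 0.09, and has no gene past 2-fold lower.

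Of the 7 mu class transferases, 6 were higher in aged mice. These cytosolic enzymes conjugate glutathione to lipid peroxidation products and foreign compounds, and their genes lie side by side on chromosome 3. All 7 were detected on both arrays, and their median difference was 0.88, or 0.78 relative to the median of all genes (0.55 to 0.78 under the 8 scalings). The level of Gstm1 was 6.67 in young and 14.3 in aged mice, a difference of 1.10 ± 0.20 (software error). That of Gstm3 was 10.3 and 20.7, a difference of 1.00 ± 0.20. Both were higher in aged mice under all 8 scalings (0.68 to 1.27), but dropped under 2-fold with quantile normalization, loess, the spike-in controls or the percentile over detected probes, and Gstm3 also with normexp.

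Gstm2 had a level of 19.2 in young and 31.3 in aged mice (1.64-fold higher). For Gstm4 the levels were 0.371 and 0.706 (1.90-fold) and for Gstm6 0.811 and 1.49 (1.83-fold). Gstm5 had 8.85 and 12.8 (1.44-fold). These 4 genes were higher on the aged array under all 8 scalings, by 0.25 to 1.10 on the log2 scale, and only centring on the median put Gstm4 and Gstm6 past 2-fold. Gstm7 went the other way, with a level of 0.225 in young and 0.144 in aged mice, a difference of -0.65 ± 0.27 that stayed below 0 under all 8 scalings (-0.91 to -0.13). Its reading was dim, with processed signals of 57.7 and 28.4 where the lowest signal of a detected probe was 14.1 and 14.3, and its other probe was detected on neither array.

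A second probe gave a difference of the same sign where a mu class gene had another detected. For Gstm1 it gave 1.00, against 1.10 for the brightest probe, for Gstm5 0.60 against 0.53, and for Gstm6 0.61 against 0.88. The files place the brightest Gstm1 probe on chromosome 5, although its accession is that of Gstm1, and the second Gstm1 probe inside the cluster at chr3:107815595-107815654. Their differences were 0.10 apart, within the software error. The Gstm6 differences were 0.26 apart, more than the software error of either probe (0.21 and 0.23). Paralogues of this class are similar in sequence, and how far each probe also binds its neighbours was not tested.

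**Figure D2:**
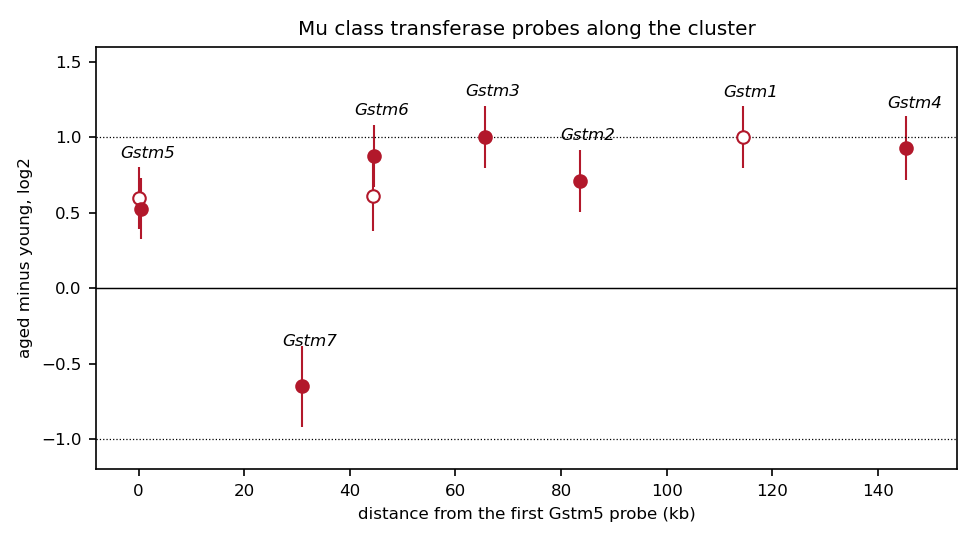
Differences between the arrays (vertical axis, aged minus young, log2) are plotted for the mu class probes on chromosome 3 against the distance from the first Gstm5 probe (horizontal axis, kb), with bars for the software error, filled points for the brightest probe of a gene and open points for a second probe. Over 145 kb, Gstm5, Gstm6, Gstm3, Gstm2, Gstm1 and Gstm4 lie between 0.53 and 1.00, and Gstm7, 31.0 kb from the first probe, lies at -0.65; the brightest Gstm1 probe, placed on chromosome 5, is left out.

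The antioxidant response element, the sequence that Nrf2 binds, was searched as TGACNNNGC on both strands in the RefSeq promoter windows (GRCm38.p6, 250 bases before to 50 after the start of a gene). Of the 60 genes, 51 had a window, and 11 of these (21.6%) held the motif, against 14.0% of 27025 genes. The 11 genes were Gclm, Gsta3, Gstm5, Gstm7, Mgst1, Mt2, Nfe2l2, Prdx1, Sod1, Srxn1 and Txnrd1. All 11 were detected on both arrays, with a median difference of 0.16 (-0.65 to 0.84), and the 31 genes on both arrays without the motif had a median of 0.38 (-0.77 to 1.10). Gstm1, Gstm3, Gpx2, Gpx3 and Mgst2, the genes past 2-fold, held no match in their windows, which says only that these letters were not there. In the mu class, the motif was in the windows of Gstm5 and Gstm7, the neighbours with opposite differences. It is shown in capitals with 10 bases on each side, at chr3:107895802-107895830 on the + strand for Gstm5 and at chr3:107931725-107931753 on the - strand for Gstm7 (GRCm38.p6), where it began 42 and 129 bases before the start of the gene.
Gstm5: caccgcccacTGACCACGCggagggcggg
Gstm7: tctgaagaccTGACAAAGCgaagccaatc

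The other transferases were mixed. The pi class, which detoxifies electrophiles and binds stress kinases, was higher on the aged array, with levels of 1.02 and 1.71 for Gstp1 (1.67-fold) and with processed signals of 3808 and 4464 for Gstp2 (1.52-fold), and both lay above the median of all genes under all 8 scalings. The accession of the Gstp1 probe also names Gstp2, so these 2 readings are not independent. In the alpha class, Gsta3 had levels of 2.43 and 4.34 (1.79-fold), with 1.64-fold on a second probe, while Gsta4, which conjugates the lipid aldehyde 4-hydroxynonenal, had 0.383 and 0.371. The mitochondrial and peroxisomal Gstk1 had levels of 10.6 and 16.1 (1.52-fold). In the theta class, Gstt1 was at 3.28 and 4.54 (1.39-fold), Gstt2 at 0.475 and 0.534, and Gstt3 at 14.7 and 13.0, and the 2 probes of Gstt2 had opposite signs (0.17 and -0.17). Gstz1, an enzyme of tyrosine breakdown, was at 5.73 and 6.90. Over all 20 transferases detected on both arrays, the median difference was 0.50, against 0.28 for the 30 other antioxidant genes.

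Gsto2 was lower on the aged array. The omega class enzymes reduce dehydroascorbate and mixed disulfides. The level of Gsto2 was 0.440 in young and 0.257 in aged mice, a difference of -0.77 ± 0.23, and it was below 0 under all 8 scalings (-1.03 to -0.33). Its second probe was detected on the young array only and gives no more than a limit, close to 0 (-0.02). Gsto1 differed little, with levels of 12.2 and 13.7.

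The microsomal transferases are membrane proteins, and Mgst2 can also make the inflammatory mediator leukotriene C4. Mgst2 had a level of 0.411 on the young array (processed signal 105, error 11.2), and was not detected on the aged array, where the software wrote a signal of 3.68 with an error of 3.70. Its level in aged mice was thus at least 5.70-fold lower. This rests on 1 probe with 1 spot, and after the normexp background correction, which compresses dim signals, the limit was -0.80 on the log2 scale. Mgst1 and Mgst3 were on the other side, 1.35-fold higher for Mgst1 and, with levels of 1.73 and 1.91, 1.10-fold higher for Mgst3, which turned to -0.11 on the log2 scale with the spike-in controls. The 2 Mgst1 probes gave 0.43 each.

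**Figure D3:**
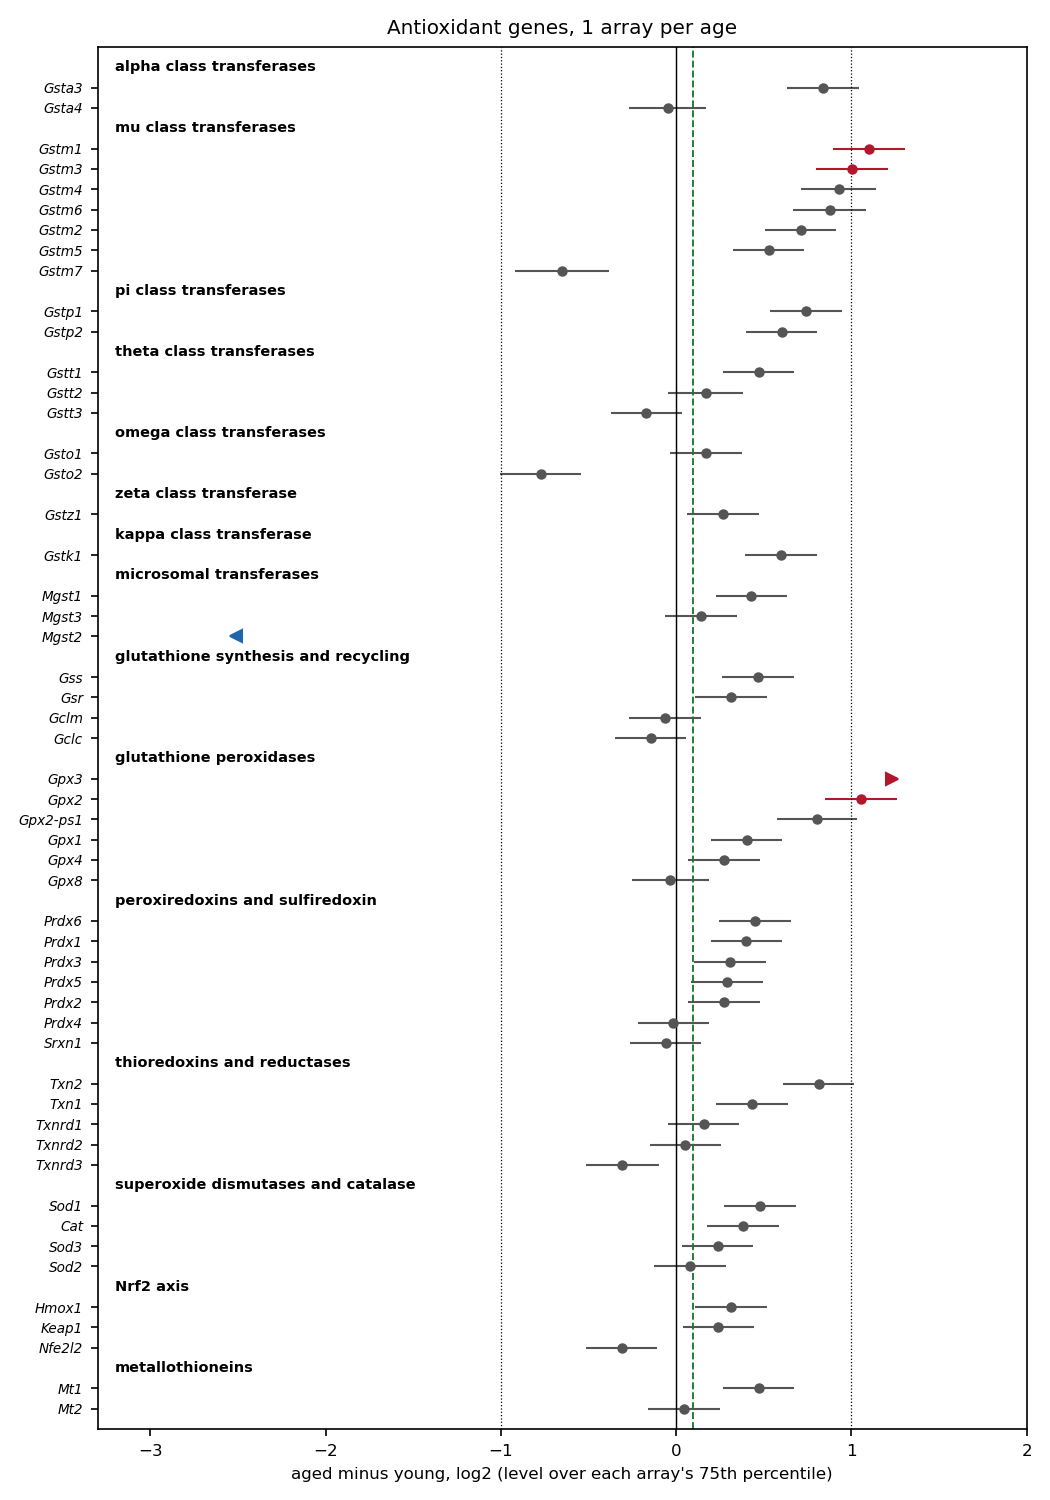
Differences between the arrays (horizontal axis, aged minus young, log2) are shown for the 52 antioxidant genes detected on at least 1 array, grouped by role, with bars for the software error of the difference and triangles for limits (Gpx3 at least 2.35-fold higher, Mgst2 at least 5.70-fold lower). Dotted lines mark 2-fold and the dashed line the median of all genes (0.09), and in the mu class 6 of 7 points lie to the right of it.

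Glutathione peroxidases gave 2 of the 4 genes past 2-fold higher. Gpx2, the peroxidase of gut and other epithelia and a known Nrf2 target, had a level of 3.48 in young and 7.24 in aged mice, a difference of 1.06 ± 0.20, and it was 0.80 to 1.23 higher under the 8 scalings, past 2-fold in 3 of them. A probe named Gpx2-ps1, for a Gpx2 pseudogene, gave 0.204 and 0.355 (1.74-fold), and since a pseudogene resembles its parent, the 2 readings may share transcripts. Gpx3, the secreted plasma form, was not detected on the young array (level 0.0514, signal 13.2) and dim but detected on the aged array (0.129, signal 25.5), which makes it at least 2.35-fold higher, while the limit was 0.50 on the log2 scale after normexp.

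The bright peroxidases Gpx1 and Gpx4 depended on the scaling. Gpx1, the common cytosolic form, had levels of 62.3 and 82.4 (1.32-fold higher), and Gpx4, which reduces lipid hydroperoxides in membranes and restrains ferroptosis, had 28.5 and 34.4 (1.21-fold), but both were lower on the aged array with quantile normalization (-0.21 and -0.15) and with loess. Gpx8 of the endoplasmic reticulum had 0.412 and 0.403. Gpx5, Gpx6 and Gpx7 were detected on neither array.

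Synthesis and recycling of glutathione differed by less than 1.5-fold at each step. The catalytic subunit of the rate-limiting ligase, Gclc, had levels of 2.59 and 2.34 (-0.15) and its modifier Gclm 3.80 and 3.63 (-0.06), and both were below the median of all genes under all 8 scalings. Gss, which adds glycine, had 4.43 and 6.12 (0.47), with 0.45 on a second probe. Glutathione reductase Gsr had 3.82 and 4.76 (0.31). The median of these 4 genes was 0.12, 0.03 from the median of all genes.

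Peroxiredoxins lay between -0.01 and 0.45 at the 75th percentile. Prdx6, which also repairs phospholipids, had levels of 32.7 and 44.7 (1.37-fold), and 3 of its probes gave 0.27 to 0.45. Prdx1 had 44.6 and 59.0 (1.32-fold), the mitochondrial Prdx3 7.89 and 9.77 (1.24-fold), Prdx5 33.2 and 40.6 (1.22-fold) and Prdx2 16.0 and 19.4 (1.21-fold). Prdx4 of the endoplasmic reticulum had 2.47 and 2.45, and Srxn1, which repairs overoxidized peroxiredoxins and is a Nrf2 target, 3.36 and 3.22. The median of this group was 0.29 but turned to -0.09 with quantile normalization and -0.08 with loess, so no direction can be given for it.

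Of the thioredoxins, Txn2 stood out and was also the gene whose probes disagreed. Txn2 is the mitochondrial form and Txn1 the cytosolic one. The brightest Txn2 probe had levels of 14.8 and 26.0 (0.81 ± 0.20) and a second one 3.08 and 5.24 (0.77). A dim probe had 0.196 and 0.152 (-0.36), and another, with a level of 0.202 on the young array, was not detected on the aged array, at least 2.80-fold lower. Both dim probes carry other transcript accessions than the bright ones, and Txn2 was the only one of 20 genes with several usable probes in which they differed by over 1 on the log2 scale. Txn1 had 16.7 and 22.5 (1.35-fold).

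The thioredoxin reductases, selenoproteins that return electrons from NADPH, differed little. Txnrd1 had levels of 7.48 and 8.35 (0.16), the mitochondrial Txnrd2 2.97 and 3.08 (0.05) and Txnrd3 0.940 and 0.760 (-0.31). Txnrd3 was below 0 under all 8 scalings, and the sign of the other two depended on the scaling.

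Superoxide dismutases and catalase differed by less than 1.5-fold. Sod1, the cytosolic copper and zinc enzyme, had levels of 42.9 and 59.8 (1.39-fold), with a negative value under quantile normalization (-0.07). The mitochondrial Sod2 had 1.86 and 1.96 (0.08) and the extracellular Sod3 2.06 and 2.43 (0.24), and both were below 0 with the spike-in controls (-0.18 and -0.02). Catalase (Cat) had 3.97 and 5.16 (1.30-fold), and it lay above 0 under all 8 scalings (0.12 to 0.55).

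The Nrf2 axis itself had no common direction. Nfe2l2, which encodes Nrf2, had a level of 3.34 in young and 2.69 in aged mice, a difference of -0.31 ± 0.20 that a second probe gave as -0.32, and it was below 0 under all 8 scalings (-0.57 to -0.14). Keap1 had 5.18 and 6.12 (0.24), with -0.02 when the spike-in controls were set level. Hmox1, the heme-degrading enzyme and a strong Nrf2 target, had 7.11 and 8.84 (0.31). Nqo1, another classical target, was detected on neither array, with signals of 5.18 and 3.06. The metallothioneins bind zinc and copper and scavenge radicals. Mt1 had levels of 315 and 436 (0.47) and Mt2 of 87.3 and 90.1 (0.04), and the pair had no stable direction, since their median turned from 0.26 to -0.38 with loess.

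The remaining genes without a usable reading were Gsta2, Gstp3, Gstt4 and Prdx6b. With Gpx5, Gpx6, Gpx7 and Nqo1, 8 of the 60 genes were therefore detected on neither array, and no fold is given for them.

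**Figure D4:**
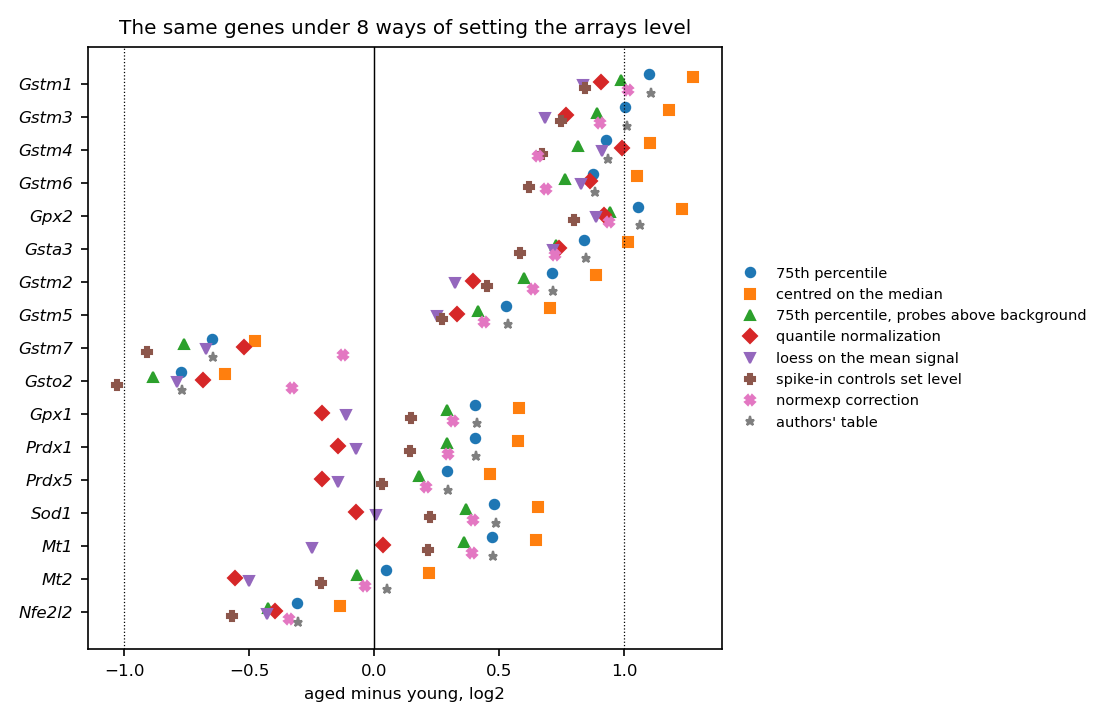
For 17 antioxidant genes, picked after their values were seen, the difference between the arrays (horizontal axis, aged minus young, log2) is plotted under each of 8 ways of setting the arrays level, with 1 symbol per way and dotted lines at 2-fold. Gstm1, Gstm3, Gstm4, Gstm6, Gpx2 and Gsta3 stay above 0.5 and Nfe2l2 below 0, whereas Gpx1, Prdx1 and Prdx5 lie on both sides of 0.

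Genes of the same pathways outside the list numbered 86, of which 82 were detected on at least 1 array. Past 2-fold were 2 of the 82 upward and 3 downward. Neither share was above that of all genes (2.52% and 5.14%). The median over 79 genes on both arrays was 0.15. Chac1, which breaks glutathione down and is induced by amino acid and endoplasmic reticulum stress, had a level of 22.4 in young and 49.4 in aged mice (2.21-fold higher). Duox2, a source of hydrogen peroxide in gland ducts, was dimly detected, and that on the aged array alone (at least 2.20-fold higher). All 8 genes that supply NADPH were detected and under 2-fold, with a median of 0.29. Among 21 partners and further targets of Nrf2, 0 passed 2-fold in either direction, and their median was 0.06 (-0.20 to 0.23 under the 8 scalings). The 4 pathway genes detected on neither array were the cystine carrier Slc7a11, the glutathione-cleaving Ggt1, the export pump Abcc2 and the prostaglandin synthase Hpgds.

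The 3 pathway genes at least 2-fold lower were Alox5ap and Ptgs1, of the leukotriene and prostaglandin pathways, and Cybb, the oxidase of phagocytes. Alox5ap had levels of 2.93 and 1.16 (2.52-fold lower), Cybb of 0.439 and 0.169 (2.59-fold lower) and Ptgs1 of 0.483 and 0.232 (2.08-fold lower). All 3 are known to be expressed in blood-derived cells, whose markers had no common direction. Macrophage and dendritic cell markers and Jchain were lower on the aged array, while S100a8, S100a9 and Cd3e were higher, as given below. Of 8 macrophage and dendritic cell markers, 7 were at least 2-fold lower (5 to 8 under the 8 scalings), and their summed level was 49.0 in young and 26.9 in aged mice, of which Csf1r alone gave 28.5 and 18.5. None of the 8 was at 0, with Cd68 at 2.09-fold, Adgre1 at 2.56-fold and Mrc1 at 3.69-fold lower. Mgst2, lower as well, is expressed in several cell types, and the part of other cells in its value or in those of the 3 genes was not tested.

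Other cell types were read from marker lists in the same way. Of 6 fibroblast markers, 4 were at least 2-fold lower (3 to 6 under the 8 scalings), with a summed level of 18.6 and 8.70, of which Dcn gave 13.6 and 6.87. Among 3 cycling cell markers, Mki67 (at least 24.8-fold) and Top2a (at least 6.77-fold) were lower and Cdk1 was 1.32-fold lower. The neutrophil genes S100a8 and S100a9 were detected only in aged mice (at least 3.98-fold and 14.0-fold higher), while Ly6g and Csf3r were 1.14-fold and 1.16-fold lower. The plasma cell gene Jchain was 3.44-fold lower, and Cd3g (at least 2.06-fold lower) was the only T cell gene past 2-fold. Cd3g was dim and fell under 2-fold with median centring, quantile normalization or normexp, while Cd3e and Cd4 were 1.48-fold and 1.04-fold higher. In the endothelial list (4 genes), the erythroid list and the adipocyte list, 0 genes passed 2-fold. Of the erythroid genes, Hba-a1 (levels of 6.54 and 7.70), Alas2 (0.371 and 0.448) and Slc4a1 (0.458 and 0.412) were detected on both arrays and Rhag on neither. Of the adipocyte genes, Fabp4 (3.03 and 3.63) and Lep (1.62 and 1.56) were detected on both arrays and Adipoq, Plin1 and Cidec on neither. Red cell precursors are known to express catalase and Prdx2 strongly, and their part in those values was not tested.

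Epithelial markers were present in both preparations. Epcam had levels of 6.94 and 7.95 (1.15-fold), and Krt8 and Krt18 were 1.02-fold and 1.16-fold higher. Cdh1 and Krt7 were 1.04-fold and 1.45-fold higher, while Cldn4 was 1.46-fold lower. In all, 6 of 7 epithelial markers were detected on both arrays, the exception being Krt19 (young array only, at least 1.85-fold lower). The median of these 6 was 0.13, and its sign depended on the scaling (-0.35 to 0.30). The median was 0.37 over 7 acinar genes, among them those of saliva proteins, and 0.01 over 6 genes of granular and striated ducts, and both signs depended on the scaling (-0.55 to 0.55 and -0.26 to 0.18). The acinar list held 1 gene past 2-fold, Smgc (3.45-fold lower), and the duct list 0. Of 6 basal and myoepithelial markers, 2 were at least 2-fold lower, Myh11 (3.55-fold) and Cnn1 (4.39-fold). The other 4 differed by less, with log2 differences of 0.03 for Krt5, 0.25 for Krt14, 0.29 for Trp63 and -0.08 for Acta2, and the median of the list was -0.02. The part of a different mix of epithelial cells in the transferase values was not tested.

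**Figure D5:**
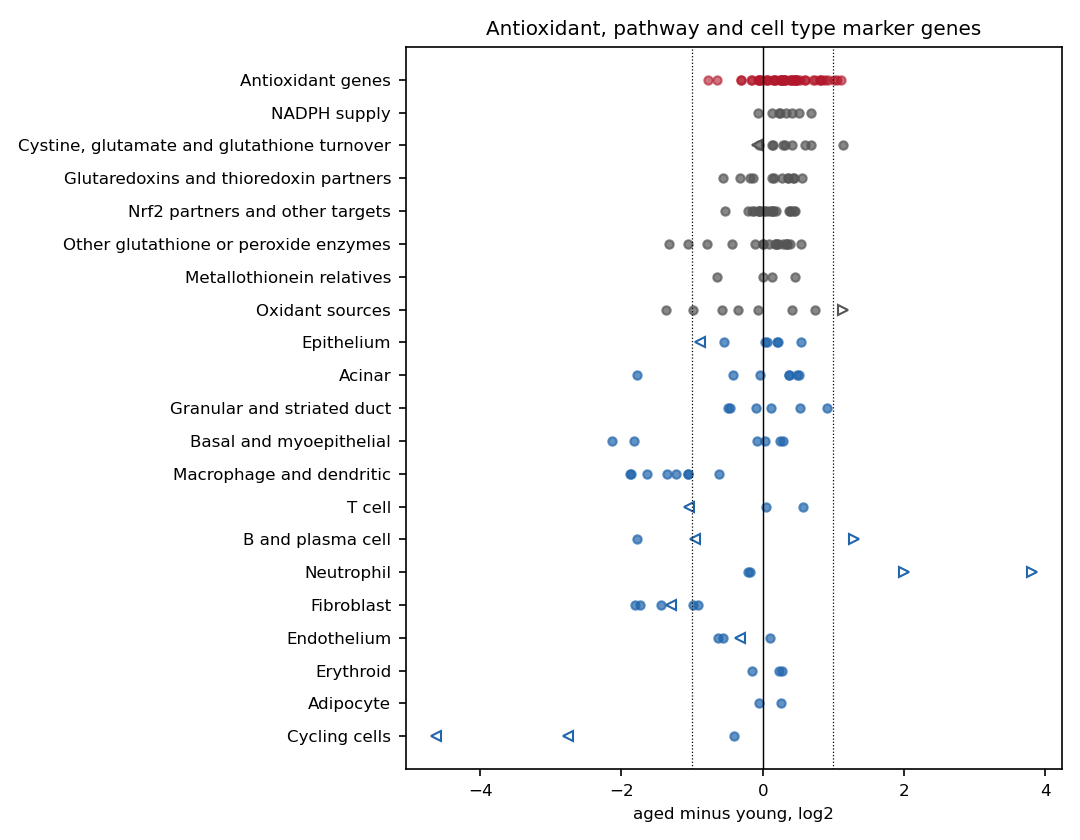
Each point is the difference of 1 gene between the arrays (horizontal axis, aged minus young, log2) for the antioxidant genes (red), the pathway lists (grey) and the cell type marker lists (blue), with triangles for limits and dotted lines at 2-fold. The antioxidant genes on both arrays lie between -0.77 and 1.10, whereas 7 of 8 macrophage and dendritic cell markers and 4 of 6 fibroblast markers lie past 2-fold lower.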

How the data were processed

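Total RNA of EpCAM-selected cells was labelled with Cy3 and hybridized to 1-colour Agilent 8 x 60K arrays by the authors, 1 per age. The deposited scanner files, made with Agilent Feature Extraction 12.0.3.1, give the intensity of each spot after background subtraction and removal of trends, with probe positions in mm9 (NCBI37). The authors' processed table holds the same intensity values as a ratio to 1 constant per array, 229 and 176. From the processed intensity, log2 was taken and the 75th percentile over 59305 non-control spots subtracted. Outlier spots were left out (90 and 93, none of an antioxidant probe), and 0 spots were saturated. The brightest probe above background on at least 1 array stood for its gene. A limit sets the brighter value against the higher of the lowest signal above background and the probe's own value on the other array. Gene names came from the files, with older names updated through RefSeq accessions (33767 of 56605 probes matched). All 60 genes may be named, and pathway genes are named past 2-fold. The genes, lists and alternatives were chosen with earlier results of these data known. The alternatives were 7 other scalings (loess with a span of 0.7, normexp with an offset of 50), looser and stricter detection filters, a 1.5-fold threshold, outlier spots kept and the mean of probes. The steps were tested on simulated data. R 4.3.3 with limma 3.58.1 and Python 3.11.15 with numpy 2.4.6, pandas 2.3.3 and matplotlib 3.10.9 were used. Some genes of the marker lists are not reported here.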

Additional observations from a re-analysis of the deposited data

How the results depend on the processing

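With 1 array per age there is no replicate to leave out. The software error, which leaves out the spread between replicates, served only as a yardstick for how far a difference moved between settings. The 4 genes at least 2-fold higher became 7 with each array centred on its median, 1 (Gpx3) with the percentile over probes above background, with quantile normalization or with loess, 1 (Gstm1) with normexp, 0 with the spike-in controls, and 13 at a threshold of 1.5-fold. Without the mu class, an alternative chosen after seeing the data, 2 were left. The 1 gene at least 2-fold lower became 2 with the spike-in controls (Gsto2 added), 2 with the mean of all usable probes, 2 without a filter on dim probes, 0 with normexp or with only genes above background on both arrays, and 3 at 1.5-fold. The mean of probes includes substitute values of dim probes, by which Gsto2 came to -1.48 and Txn2 to -0.59. The median of 0.31 became 0.10 with quantile normalization, 0.056 with loess and 0.054 with the spike-in controls, and was 0.20 to 0.49 under the others. Of 468 recomputed differences of single genes, 370 moved by less than the software error, 98 by more, and 0 of the genes past 2-fold turned. Some settings move every difference by the same constant, such as median centring (0.17) and the spike-in controls (-0.26). The counts of 370 and 98 therefore partly reflect the size of those constants. Among all genes, higher calls were 33.2% of the calls past 2-fold at the 75th percentile, 52.6% with median centring and 13.8% with the spike-in controls. Of the pathway genes, the 2 higher became 0 with the spike-in controls and 1 with quantile normalization, loess or normexp, and the 3 lower became 1 to 6. The authors' table and the outlier spots altered no count of antioxidant or pathway genes. Signals near 14 limit Gpx3, Gstm7, Gsto2 and Mgst2. No paired analysis was possible because each age has 1 array.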
